A study of Musca domestica with 24 samples.

Results

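The abdomens of house flies (Musca domestica) called SR, which were treated with double-stranded RNA against Md-tra, were compared with the abdomens of GFP males, control flies treated with double-stranded RNA against GFP. Each group had 3 abdomens, so the comparison rests on 6 of the 24 libraries. A gene entered it when its normalized count reached 10 in at least 3 of the 12 abdomen libraries, which kept 12537 of the 16540 genes in the table. All flies came from strain IIIM (3-6), each library was made from the poly(A) RNA of 1 abdomen or head, and no RNA was pooled; the age of the flies is not given in the sources used here.

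Transformer (tra) encodes a splicing regulator that house fly embryos need to become female, and a male determiner acts by keeping tra from making its active protein. In IIIM strains that determiner sits on chromosome III, which corresponds to Muller element A, the name for a chromosome arm conserved among flies. Loss of tra function turns genetic females into males, whereas genetic males have no active tra to lose.

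The sources describe the SR flies in 2 ways. Sample titles make SR genotypic males with a male phenotype under Md-tra RNAi, and they make the flies called N genotypic females that Md-tra RNAi turned into males. The headers of the authors' deposited comparisons speak of sex-reversed males and normal males, and by them SR would be the sex-reversed males and N the normal males. Across the 12537 genes, the authors' deposited log2 fold change of sex-reversed males over GFP females had a Pearson correlation of 0.984 with the difference between SR and GFP females, and of 0.938 with that between N and GFP females. Their deposited log2 fold change of normal males over GFP males had a correlation of 0.978 with the difference between N and GFP males and of 0.324 with the one between SR and GFP males. The table therefore carries no deposited comparison of SR with GFP males. By the titles, SR and GFP males share a genotype and differ in the RNAi target; by the headers, they differ in genotypic sex as well, and effects of genotype and of RNAi cannot be told apart here. The names SR and N are used below without choosing between these readings. N and the GFP females (genotypic and phenotypic females given GFP RNAi), 3 abdomens each, enter as points of orientation and as part of the shared estimate of spread. A group with no read of a gene adds no spread to that estimate, which can then be too small.

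SR abdomen libraries held 24100066 to 41657177 reads and GFP male abdomen libraries 20916287 to 31364368. N libraries were thinner, with 2689265 reads in replicate 1, 16113838 in replicate 2 and 2756581 in replicate 3, so that 1 read was worth 7.83, 1.69 and 7.77 normalized counts there. Md-tra itself is not analysed here, and whether the knockdown worked was therefore not checked. In bulk abdomens, fewer cells of a type and less RNA per cell cannot be told apart.

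SR and GFP male abdomens differed at few genes by this test. With limma on log2(normalized count + 1) and a Benjamini-Hochberg adjusted p under 0.05, 20 of 12537 genes (0.16%) were called; 8 of them (0.0638%) rose and 12 (0.0957%) fell in SR. The called genes lay on elements A, B, C and E or on none, and went by identifiers alone: the table gives no symbol for any of the 20. An unadjusted p under 0.05 was reached by 815 genes (6.5%). The 3 SR values all lay above the 3 GFP male values at 1011 genes (8.06%) and all below at 919 genes (7.33%).

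That count depended on how the model was set up. When replicate numbers were blocked in the 6 libraries, limma called 0 genes at an adjusted p under 0.05, with adjusted p-values of 0.0952 to 0.227 for the 20 genes and 1524 genes at an unadjusted p under 0.05. Blocked over the 12 libraries it called 14, of which 13 were among the 20. The quasi-likelihood test of edgeR called 2 genes (0.016%), LOC101899147 and LOC101899400, while DESeq2 called 268 (2.14%), 137 higher and 131 lower, with all 20 among them. Without the 3 N libraries limma called 62, again with all 20 among them. Leaving out SR replicate 1 left 9 calls, SR replicate 2 left 13 and SR replicate 3 gave 21; leaving out GFP male replicate 1 left 10, replicate 2 left 9 and replicate 3 left 10. A total of 8 genes kept their call in each of those 6 fits, and they are described first in each direction.

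**Figure D1:**
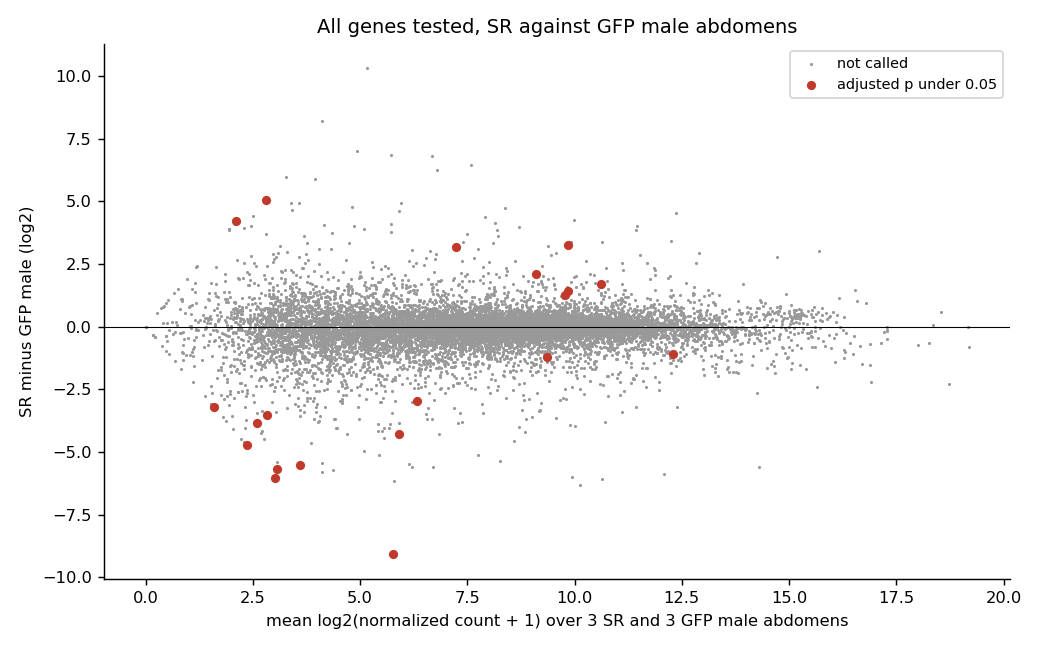
Each point is 1 of 12537 genes, placed by its mean log2(normalized count + 1) over the 3 SR and 3 GFP male abdomens (x axis) and by the SR minus GFP male difference in log2 units (y axis); red points are the 20 genes with an adjusted p under 0.05. Calls lie at differences from -9.09 to 5.05, and 438 genes with a difference of 2 or more log2 units in either direction are not called.

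The clearest difference was at LOC101899147, on element A. Its normalized counts were 2916, 3592 and 2259 in SR abdomens, against 298, 303 and 284 in GFP male abdomens, a 9.9-fold higher mean in SR. The log2 difference was 3.28 ± 0.18 (SE, n = 3 each), with a limma Benjamini-Hochberg adjusted p of 3.05e-05 (8.04e-05 by edgeR). N abdomens, at 204, 233 and 233, lay below the GFP males, and GFP female abdomens, at 1487, 1599.8 and 1552, lay between SR and GFP males. In heads SR replicate 2 lay within the GFP male range. The counts were 2423, 793 and 3100 (3 SR heads) against 847, 779.8 and 809.6 (3 GFP male heads). The difference of 1.16 ± 0.42 log2 units was not called there (limma adjusted p = 0.129).

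In abdomens LOC101887497, on element B, separated both groups given Md-tra RNAi from both groups given GFP RNAi. SR abdomens had 44.4, 53.1 and 25.5 normalized counts and GFP male abdomens 0, 0.804 and 0, which is 163 reads in all against 1 read. N abdomens had 54.8, 30.4 and 23.3, and GFP female abdomens 0.619, 0 and 0. The value of N replicate 3 is that of 3 reads in its library. SR and N overlapped each other, and neither overlapped the GFP groups. The SR minus GFP male difference was 5.05 ± 0.56 log2 units (limma adjusted p = 0.00458), and no fold is given against a single read. In heads the same gene had 1.88, 3.89 and 1.78 in SR and 0.919, 8.54 and 1.12 in GFP males, overlapping levels too low to be tested there. N heads had 0, 40.3 and 15.7 and GFP female heads 0.926 to 1.35, so the separation did not hold in heads.

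LOC101899400, on element E, had 3002, 3418 and 2195 normalized counts in SR abdomens, against 1015, 843 and 769 in GFP male abdomens. The SR mean was 3.28-fold higher, a log2 difference of 1.70 ± 0.19 (limma adjusted p = 0.00499, edgeR adjusted p = 0.0416). GFP female abdomens, at 3120.4, 3948 and 3499, overlapped SR, and N abdomens, at 603, 639.9 and 544, lay below every GFP male.

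Among the other 5 genes that were higher in SR, every GFP female abdomen lay above every GFP male abdomen at 4. LOC101896416, on element A, had 1334, 1363 and 1404 in SR abdomens, against 505, 654 and 538 in GFP male abdomens, a mean 2.42-fold higher in SR (1.28 ± 0.20 log2 units, limma adjusted p = 0.0328). The 3 SR values differed by less than those of any other group, N lay at 326 to 520.1 and GFP females at 4095 to 5393. Leaving out any 1 of the 6 libraries ended its call, with an adjusted p of 0.0777 (without GFP male replicate 2) to 0.163 (without GFP male replicate 1). It was called in heads as well, with 1922, 1879 and 2240.4 in SR heads against 905, 861 and 957 in GFP male heads (1.15 ± 0.15 log2 units, limma adjusted p = 0.00629). The N heads, at 949 to 1002, lay near the GFP males and the GFP female heads, at 1705 to 2305, overlapped SR.

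LOC101892526, also on element A, had 1130.2, 1378 and 929 in SR abdomens, against 265, 395 and 175 in GFP male abdomens. The mean was 4.11-fold higher in SR (2.10 ± 0.28 log2 units, limma adjusted p = 0.0164), and the call ended without SR replicate 1 (0.0901), SR replicate 2 (0.0656) or GFP male replicate 1 (0.0926). GFP females had far more, 5038 to 5545. The order was different in heads, where GFP females were lowest at 72.2 to 176 and SR, at 444 to 607, overlapped GFP males at 405 to 809.

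LOC101901112, on element E, had 1817, 1309 and 1427 in SR abdomens, against 722, 494 and 480.0 in GFP male abdomens. Its SR mean was 2.69-fold higher (1.44 ± 0.20 log2 units, limma adjusted p = 0.0199). SR exceeded GFP females too, which had 980.4 to 1011. The call ended without SR replicate 1 (0.11), SR replicate 3 (0.0521), GFP male replicate 2 (0.0909) or GFP male replicate 3 (0.0881).

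LOC101900843, on element E, had 347, 497 and 544 in SR abdomens, against 41.6, 51.4 and 56.8 in GFP male abdomens. This 9.26-fold higher mean in SR (3.17 ± 0.42 log2 units, limma adjusted p = 0.0161) fell short of a call once any 1 of the 6 libraries was left out, at 0.0511 (without SR replicate 1) to 0.0926 (without GFP male replicate 1). N abdomens, at 62.5 to 196, were also above every GFP male, and GFP females had 237 to 394. In heads SR had 397, 292 and 517 against 176, 155 and 196 in GFP males, no overlap but no call (1.16 ± 0.39 log2 units, limma adjusted p = 0.109).

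LOC109612989, on element E, was read in SR abdomens at 12.2, 20.5 and 21.3 normalized counts, 68 reads in all, and had no read in any GFP male abdomen. Set against a floor of 3 reads in each GFP male library, its mean was at least 5.59-fold higher in SR (limma adjusted p = 0.0276). N reached 1.69 in replicate 2 and had no read in replicates 1 and 3, and GFP females reached 1.92 at most. SR thus stood above both GFP groups and N replicate 2. In N replicates 1 and 3, 3 reads would be worth 23.5 and 23.3, so N is not shown there to lie below SR. Leaving out any 1 of the 6 libraries ended the call, at 0.0814 (without SR replicate 3) to 0.125 (without GFP male replicate 1). In heads it was called in the same direction, with 97.7, 27.9 and 114 in SR against 2.3, 1.51 and 0 in GFP males (5.09 ± 1.11 log2 units, limma adjusted p = 0.0352); there N heads, at 10.1 to 72.2, also exceeded the GFP males.

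Of the 12 genes that were lower in SR, 8 averaged under 3 normalized counts in SR and 10 averaged under 3 in GFP females. At 6 of the 12, SR and GFP females both averaged under 3 while N averaged more, and at 2 no N abdomen had a read. The largest difference of all called genes was at LOC101892939, which the table assigns to no element. It had 0.871, 0.604 and 3.19 normalized counts in SR abdomens, against 1419, 1138 and 1263 in GFP male abdomens, an 818-fold lower mean in SR that rests on 5 reads there. Its log2 difference was -9.09 ± 0.88 (limma adjusted p = 0.00232). N had 17141, 1149.9 and 2930.1, and GFP females 0.206, 0 and 2.56. In heads the difference was -6.08 ± 0.85 log2 units, with 8.46, 0 and 5.35 in SR against 275, 199.97 and 335 in GFP males (limma adjusted p = 0.00783).

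LOC109614219, on element C, had 0, 0.604 and 0 in SR abdomens, 1 read in all, against 73.2, 61.9 and 46 in GFP male abdomens. The log2 difference was -5.69 ± 0.51 (limma adjusted p = 0.00152). N abdomens, at 38.9 to 86.1, were at the level of GFP males, and GFP females reached 0.24. In heads no SR library had a read, against 143, 170 and 149 in GFP males; this was a difference of -7.27 ± 0.45 log2 units (limma adjusted p = 0.000134), and N heads had 97.2 to 186.

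LOC105262442, with no element, had 2.61, 0.604 and 0 in SR abdomens, against 67.4, 66.7 and 120.5 in GFP male abdomens. The mean was 79.1-fold lower in SR, a fold that rests on 4 reads there. The difference of -5.52 ± 0.57 log2 units (limma adjusted p = 0.00335) had a match in heads of -5.55 ± 0.53 (limma adjusted p = 0.00162). N had 113 to 165 in abdomens, above or near the GFP males, and GFP females reached 0.48.

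Reads of LOC105262251, on element A, came from the GFP male abdomens alone among all 24 libraries. SR abdomens had 0, as did N and GFP female abdomens and all 12 heads, against 86.1, 35.4 and 86.2 normalized counts in GFP male abdomens, 192 reads in all. Against the floor of 3 reads per library, the mean was at least 27.3-fold lower in SR (-6.03 ± 0.50 log2 units, limma adjusted p = 0.00107). By edgeR its adjusted p was 0.202.

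LOC101900266 (element A) was likewise at 0 in SR abdomens, against 21.5, 25.7 and 30.4 in GFP male abdomens, at least 10.2-fold lower in SR (-4.73 ± 0.52 log2 units, limma adjusted p = 0.00458). N abdomens had more than GFP males, 85.5 to 243. GFP females had 0.24 to 0.569, and all 12 head libraries had no read.

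The other 7 genes that were lower in SR lost their calls in most of the fits that left out a library. LOC105262053, on element C, had 6.97, 15.7 and 18.1 in SR abdomens, against 313, 291 and 205 in GFP male abdomens (-4.29 ± 0.60 log2 units, limma adjusted p = 0.0223). N had 109.8 to 345 and GFP females 1.65 or less. The call ended without SR replicate 1 (0.12), SR replicate 2 (0.0624) or GFP male replicate 1 (0.133), 2 (0.0933) or 3 (0.0844). In heads its difference was -6.72 ± 0.74 log2 units, with 3.76, 0.649 and 0 in SR against 185, 252 and 195 in GFP males (limma adjusted p = 0.003).

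LOC109613991, with no element, was low but present in SR, at 20.9, 30.8 and 33 in abdomens, against 232, 207 and 223 in GFP males. The mean was 7.83-fold lower in SR (-2.95 ± 0.43 log2 units, limma adjusted p = 0.0281), N had 122 to 194 and GFP females 0.48 to 1.86. Leaving out any 1 of the 6 libraries ended the call, at 0.0579 (without SR replicate 3) to 0.156 (without GFP male replicate 1). Its heads had the same order of groups: SR had 104, 78.5 and 99.8 against 451, 487 and 457 in GFP males (-2.30 ± 0.31 log2 units, limma adjusted p = 0.00723), with N at 242 to 495 and GFP females at 54 to 93.5.

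A trio of thinly read genes completed this set. LOC101900448, with no element, had 0.871, 1.21 and 0 in SR abdomens, 3 reads in all, against 33, 12.9 and 25.5 in GFP male abdomens (limma adjusted p = 0.0316). LOC105262537, on element E, had 0.871, 0.604 and 2.13 in SR abdomens, against 18.7, 40.2 and 16.7 in GFP male abdomens (limma adjusted p = 0.0316), and had no read in N abdomens, where 3 reads would be worth 5.07 to 23.5 normalized counts. LOC109612165 (element A) was at 0 in all SR abdomens, against 8.61, 10.5 and 5.88 in GFP male abdomens, at least 3.27-fold lower in SR (limma adjusted p = 0.0316). LOC101900448 and LOC109612165 fell short of a call once any 1 of the 6 libraries was left out, at 0.0713 (without SR replicate 2) to 0.158 (without GFP male replicate 1) and 0.0873 (without SR replicate 3) to 0.156 (without GFP male replicate 1); LOC105262537 lost its call without SR replicate 1 (0.155), SR replicate 2 (0.113) or GFP male replicate 1 (0.118), 2 (0.104) or 3 (0.0844). LOC109612165 was well read in heads, at 302, 326 and 221 in SR against 225, 206 and 232 in GFP males, and did not differ there beyond its spread (0.33 ± 0.25 log2 units, limma adjusted p = 0.426).

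A pair of element A genes stood apart from the rest by being abundant everywhere. LOC101896805 had 3136, 3543 and 3828 in SR abdomens, against 6693, 7189 and 8203 in GFP male abdomens, a 2.1-fold lower mean in SR (-1.07 ± 0.14 log2 units, limma adjusted p = 0.0161). SR was below N, at 9125 to 9832, and below GFP females, at 6791 to 7493, as well. The call ended without SR replicate 1 (0.0901), SR replicate 2 (0.0532), GFP male replicate 2 (0.0777) or GFP male replicate 3 (0.0844). In heads SR had 6974, 7932 and 7449 against 12715, 13964 and 12284 in GFP males (-0.80 ± 0.16 log2 units, limma adjusted p = 0.0262), and there GFP females, at 5624 to 8069, overlapped SR.

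LOC101892000 had 396, 388 and 518 in SR abdomens, against 1007, 1055 and 904 in GFP male abdomens, a 2.28-fold lower mean in SR (-1.19 ± 0.18 log2 units, limma adjusted p = 0.0316). N and GFP female abdomens, at 964 to 1217 and 987 to 1293, were at the GFP male level. The call ended without SR replicate 1 (0.168), SR replicate 2 (0.108) or GFP male replicate 1 (0.156), 2 (0.126) or 3 (0.0951). In heads the groups overlapped, with a difference of 0.01 ± 0.20 log2 units.

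**Figure D2:**
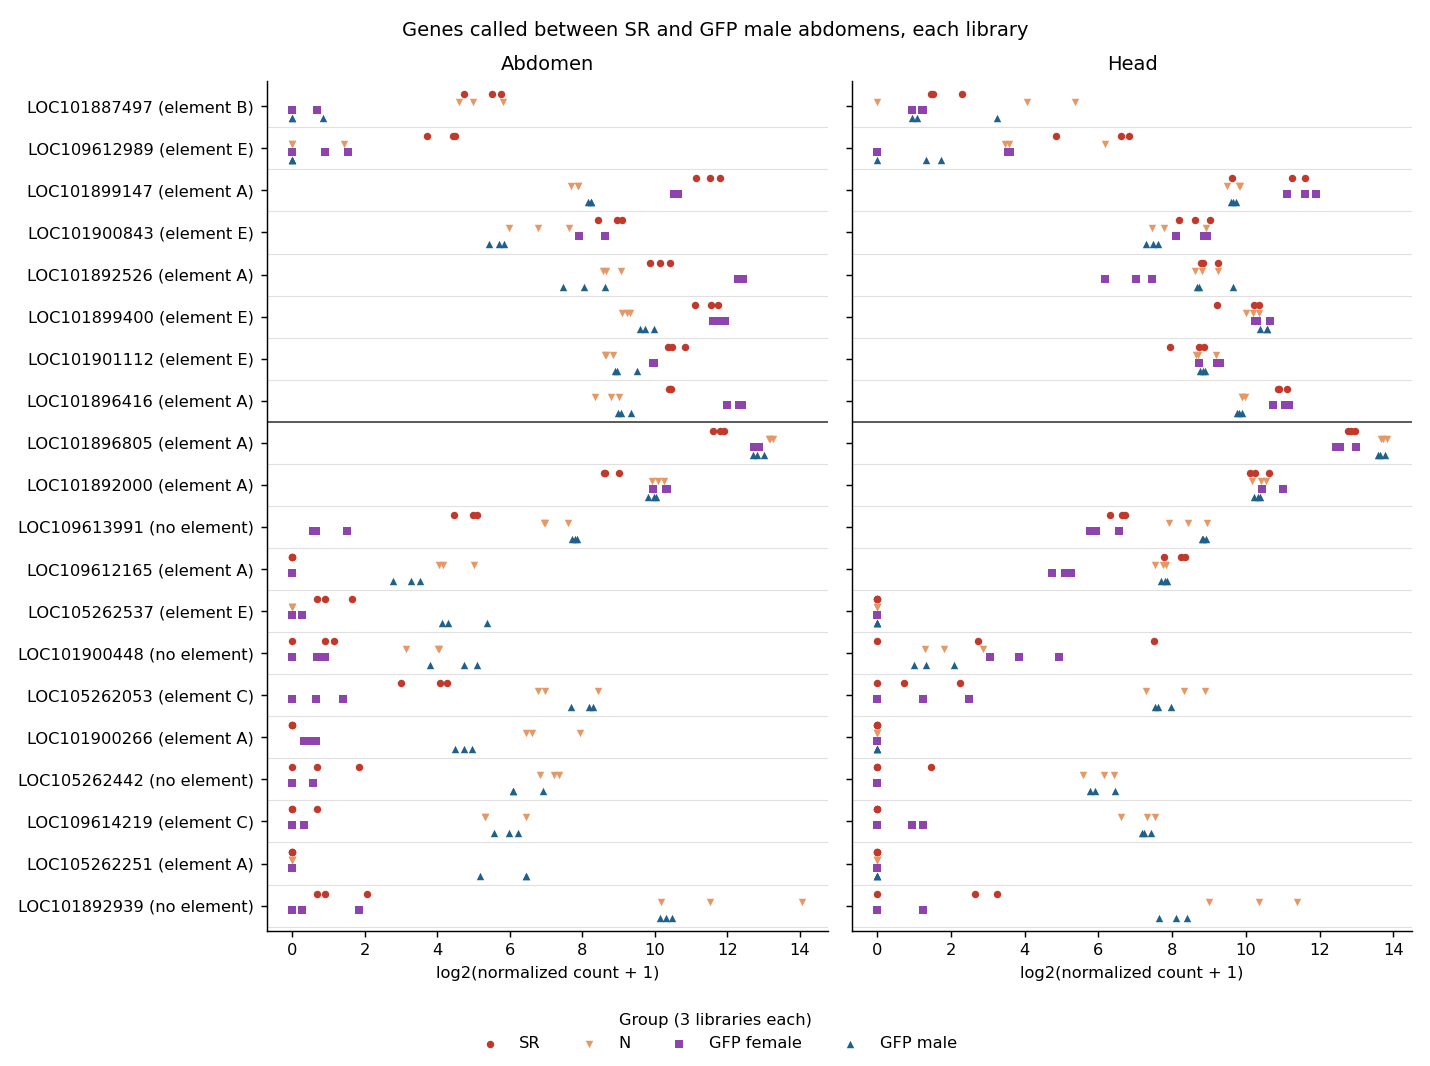
Each marker is 1 library's log2(normalized count + 1) for the 20 called genes in abdomens (left) and heads (right), with 3 libraries each of SR, N, GFP females and GFP males in that order from top to bottom within a gene; the line separates the 8 genes higher in SR from the 12 lower. In abdomens SR and GFP male markers do not overlap at any of the 20 genes, and at 13 of them all N lie on the GFP male side and all GFP females on the SR side. The tissues were scaled separately, so levels are not to be compared between panels.

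At the threshold, LOC109612165 and LOC101896416 were the last genes called, at limma adjusted p-values of 0.0316 and 0.0328. The nearest genes outside were LOC101896844 (0.0525) and LOC109613331 (0.0552), both on element A. LOC101896844 had 2.61, 29.6 and 9.58 in SR abdomens, against 1058, 715 and 140.1 in GFP male abdomens, and it was called without SR replicate 2 (0.0443) or GFP male replicate 3 (0.0392). LOC109613331 had 41, 7.85 and 49 in SR abdomens, against 258, 341 and 449 in GFP male abdomens, and it was called without SR replicate 2 (0.0443) or SR replicate 3 (0.0463). Both had under 2 normalized counts in every GFP female abdomen, while N had 38.9 to 54.8 of LOC101896844 and 973 to 1731 of LOC109613331.

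The position of the groups that took no part in the contrast was counted for each gene, taking the midpoint of the SR and GFP male mean log2 values as the border. All 3 N abdomens lay on the GFP male side at 16 of the 20 called genes (80%), against 36.2% of the 1930 genes whose SR and GFP male values did not overlap and 32.4% of all genes tested. All 3 GFP female abdomens lay on the SR side at 16 of the 20 (80%), against 54.8% of the 1930 and 55.0% of all. Both held at 13 of the 20 (65%), against 18.8% and 19.2%. The N and GFP female libraries took part in the estimate of spread but not in the SR and GFP male means. LOC105262251 and LOC105262537 reached the filter's 10 normalized counts only in GFP males, and LOC109612989 only in SR. They are counted in these shares, which are therefore not independent of the filter. The reading of these shares as a difference from the background was not tested. The 4 called genes where N did not lie with the GFP males were LOC101887497, LOC101900843, LOC105262537 and LOC105262251, and at the last 2 of these N had no read at all. The 4 where GFP females did not lie with SR were LOC101887497, LOC109612989, LOC101896805 and LOC101892000.

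Heads of the same groups gave a second tissue that the abdomen calls had not used. Of the 20 genes, 16 were read well enough to be tested in heads and 8 were called there, all 8 in the same direction as in the abdomen. In heads 550 of 12237 genes (4.49%) were called between SR and GFP males. The 8 were LOC109612989 and LOC101896416 (higher in SR) and LOC101896805, LOC109613991, LOC105262053, LOC105262442, LOC109614219 and LOC101892939 (lower in SR). Of the 16, 10 had the same sign of difference in heads, and the share with the same sign over all genes was not counted. At 9 the SR and GFP male heads did not overlap in the direction seen in abdomens. A lack of overlap in either direction was found at 38.3% of all head genes. Of the 742 genes without overlap in both tissues, 511 (68.9%) had the same direction in both. Whether each abdomen and head with one number came from 1 fly is not stated for the libraries, so the tissues are not taken as independent flies.

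Several genes with no read in one group were not called. LOC109613686, with no element, had 0 in all SR abdomens, against 23, 10.5 and 16.7 in GFP male abdomens, at least 6.57-fold lower in SR against the floor of 3 reads (limma adjusted p = 0.155); N had 7.77 to 165 and GFP females 0. LOC101887537, on element B, had 19.2, 13.3 and 10.6 in SR and 0 in GFP male abdomens, at least 4.46-fold higher (limma adjusted p = 0.529). LOC101900313, on element E, had 13.1, 11.5 and 17 in SR and 0 in GFP male abdomens, at least 4.31-fold higher (limma adjusted p = 0.301). With LOC105262251, LOC101900266 and LOC109612989, these make 3 genes with no read in SR and at least 10 normalized counts in each GFP male, and 3 genes the other way round.

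Large differences without a call were common. Of the 453 genes with an absolute log2 difference of 2 or more, 438 were not called, and the median standard error over all genes was 0.51 log2 units. The 95% confidence interval of the difference lay within 1 log2 unit either side of 0 at 4337 genes (34.6%) and within 2 log2 units at 8168 (65.2%). For uncalled genes with wider intervals, a change of that size is not shown to be absent.

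Among the 8 uncalled genes with the largest higher values in SR and no overlap, the flies differed widely within a group. LOC101901252, on element B, had 1605, 1838 and 1989 in SR abdomens, against 8.61, 33 and 26.4 in GFP male abdomens, a 79.9-fold higher mean in SR (limma adjusted p = 0.0731). N had 54.8, 748 and 31.1, and GFP females had 0.853 to 19.6; it was also read in heads of every group, at 1463 to 20602. LOC101888452, with no element, had 195, 173 and 94.7 in SR abdomens, against 1.44, 12.1 and 3.92 in GFP male abdomens (26.6-fold, limma adjusted p = 0.0606).

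LOC101889640 and LOC101889813, both on element A, had profiles that were alike. LOC101889640 had 611, 718 and 421 in SR abdomens, against 1.44, 4.02 and 8.82 in GFP male abdomens. LOC101889813 had 1335, 1568 and 436 in SR abdomens, against 4.31, 12.1 and 28.4 in GFP male abdomens. Their limma adjusted p-values were 0.196 and 0.301 in the abdomen. In GFP female abdomens replicate 1 was far above the other 2 for both genes, 4859 against 30 and 48.1, and 10403 against 34.3 and 98.4. Both were called in heads, at 5.10 ± 0.99 and 5.72 ± 1.15 log2 units (limma adjusted p = 0.0247 and 0.0279), with GFP female heads highest at 3385 to 33398 and 7793 to 89118.

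The other 4 had log2 differences of 4.93 to 7.02 and limma adjusted p-values of 0.156 to 0.654. LOC101898309, on element E, had 1234, 665 and 51.1 in SR abdomens, against 0, 8.84 and 0.979 in GFP male abdomens, and no GFP female abdomen had a read. LOC101897228, on element E, had 1515, 562 and 1511 in SR abdomens, against 0, 2.41 and 262 in GFP male abdomens. LOC101888579, on element B, had 72.3, 199 and 28.7 in SR and 1 read among the GFP males, and LOC101900352, with no element, had 438, 61.6 and 9.58 in SR against 0, 1.61 and 2.94 in GFP males.

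Of the 8 uncalled genes with the largest lower values in SR, 5 shared a profile. LOC101887550, on element A, had 1681, 679 and 21209.8 in SR abdomens, against 148519, 88579.6 and 205306 in GFP male abdomens. LOC101890887, on element C, had 221, 124 and 6398 in SR abdomens, against 42839.8, 20902 and 41265 in GFP male abdomens. LOC101892521, with no element, had 45.3, 54.9 and 2768 in SR abdomens, against 13024, 8892 and 19576 in GFP male abdomens. In each, SR replicate 3 lay between the other SR flies and the GFP males, and N spread over a wide range. LOC101892353, with no element, had 41.8, 24.1 and 1762 in SR against 10872, 6963 and 13023 in GFP males. LOC101892595, on element B, had 39.2, 30.8 and 1460.1 in SR against 12056, 4585 and 8773 in GFP males.

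All 5 were near 0 in GFP female abdomens next to the GFP males, with at most 276 for LOC101887550 and 73.1 for the others. Their mean in SR was 14.5-fold to 18.8-fold lower, with log2 differences of -5.59 to -6.33 and limma adjusted p-values of 0.23 to 0.371. SR replicate 3 made these differences smaller. Without it the log2 differences were -8.25 for LOC101892353, -8.01 for LOC101892521, -7.78 for LOC101892595, -7.64 for LOC101890887 and -7.03 for LOC101887550. Of these LOC101892595 was then called (limma adjusted p = 0.0431), and the other 4 had adjusted p-values of 0.0747 to 0.227. The remaining 3 were LOC101888444, LOC105261482 and LOC101896844. LOC101888444, with no element, had 6.1, 8.45 and 3.19 in SR abdomens, against 2141, 285 and 167 in GFP male abdomens (limma adjusted p = 0.0618). LOC105261482, on element A, had 2.61, 0 and 5.32 in SR abdomens, against 224, 133 and 109.7 in GFP male abdomens (limma adjusted p = 0.125).

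The 53 genes that carry a symbol in the table, to which a known role can be attached, gave no called gene among the 48 that were tested. Only 0.16% of all genes were called, so the absence of calls among so few genes, here and in the groups below, says little about them. Their differences ran from -2.98 to 3.88 log2 units with a median of -0.06, beside -0.02 over all genes tested. An unadjusted p under 0.05 was reached by 5 of them (10.4%, against 6.5% of all genes), all with a limma adjusted p of 0.329 or more. The groups did not overlap at 8 (16.7%, against 15.4% of all genes), and the interval lay within 1 log2 unit of 0 at 13 (27.1%, against 34.6%). The 5 not tested were achaete, chitinase, Gr2, Mda6 and MdRdl, which were read at under 10 normalized counts in nearly all abdomens.

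Functions tied to sex in Drosophila were represented by 3 genes. Yolk protein 3 (yp3), in Drosophila a yolk protein made by the female fat body and ovary, had 6253, 24021 and 7747 normalized counts in SR abdomens, against 1975, 273 and 679 in GFP male abdomens. The 3 SR flies lay above the 3 GFP males, by 3.88 ± 1.86 log2 units (limma adjusted p = 0.811). GFP female abdomens ranged from 21.1 to 15574 and N from 669 to 3173, so levels also spread widely within those groups. Bicoid (bcd), in Drosophila a message stored in the egg that patterns its anterior, had no read in any SR or GFP male abdomen, which allows up to 1.81 to 3.19 normalized counts in SR and 2.41 to 4.31 in GFP males from 3 reads. GFP female abdomens had 2225 to 3315 of it. Sex-lethal (Sxl), the switch gene of sex determination in Drosophila, had 684, 819.8 and 824 in SR abdomens, against 589.8, 739 and 658 in GFP male abdomens (0.23 ± 0.18 log2 units, interval -0.17 to 0.62). GFP females had 2015 to 2628 of Sxl.

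Immune effectors and serpins, which are protease inhibitors, all had lower estimates in SR and none was called. Defensin-1, an antimicrobial peptide, had 311, 2465 and 5909 in SR abdomens, against 32467, 3852 and 7107 in GFP male abdomens (-2.54 ± 1.38 log2 units). GFP male replicate 1 held the highest defensin-1, diptericin and attacin of the 6 flies, with 6993 for attacin against 99.7 and 378 in the other GFP males. The median over the 4 effectors was -1.63 log2 units, with adjusted p-values of 0.878 or more. Among 4 serpins the median was -1.20: SPN13 had 2.61, 13.9 and 10.6 in SR against 116, 49.8 and 50.9 in GFP males, and Spn2 had 15.7, 14.5 and 23.4 in SR against 231, 20.1 and 159.7 in GFP males. Both had an unadjusted p under 0.05, and SPN15 had nearly equal values, at 1144, 1186 and 1141 in SR against 1184, 895 and 1503 in GFP males.

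None of the detoxification genes was called. Of 9 cytochrome P450 genes and their partners, 3 had higher and 6 had lower estimates in SR, with a median of -0.60 log2 units. CPR, the reductase that passes electrons to P450 enzymes, had 15935, 14684 and 11972 in SR abdomens, against 9844, 7267 and 9381 in GFP male abdomens (0.69 ± 0.26 log2 units, limma adjusted p = 0.596). CYP6D8 did not overlap either, with 14427, 10246 and 9122 in SR against 6993, 5682 and 2091 in GFP males (1.34 ± 0.90 log2 units, limma adjusted p = 0.962). CYP6D3 had 10838, 12155 and 13987 in SR against 32766, 27571 and 22491 in GFP males, also without overlap (-1.15 ± 0.74 log2 units, limma adjusted p = 0.945). Glutathione transferases, the esterase MdaE7 and superoxide dismutases, 6 genes with roles in detoxification and oxidative defence, had a median of -0.14 log2 units, and SR overlapped GFP males at all 6.

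The chaperonin subunits were measured with narrow intervals. These 3 genes, CCT-delta, CCT-eta and CCT-zeta, which help fold actin and tubulin, had differences of -0.11, -0.06 and 0.26 log2 units, each with an interval inside 1 log2 unit. HSP70, a heat shock chaperone, had 74721, 99496 and 73090.4 in SR against 98830.1, 101071 and 118553 in GFP males (-0.37 ± 0.24 log2 units), and the small heat shock gene hsp20 overlapped. THY had the lowest unadjusted p of all symbols, with 2908, 2389 and 2858 in SR abdomens, against 4284, 3487 and 6765 in GFP male abdomens (-0.78 ± 0.22 log2 units, limma adjusted p = 0.329). ODC had 3819, 2165 and 4108 in SR abdomens, against 1174, 491 and 1364 in GFP male abdomens (1.81 ± 0.79 log2 units, limma adjusted p = 0.737). The neural genes para-like, nAChRbeta3 and IR25a and the signalling genes armadillo and argos all overlapped between SR and GFP males.

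**Figure D3:**
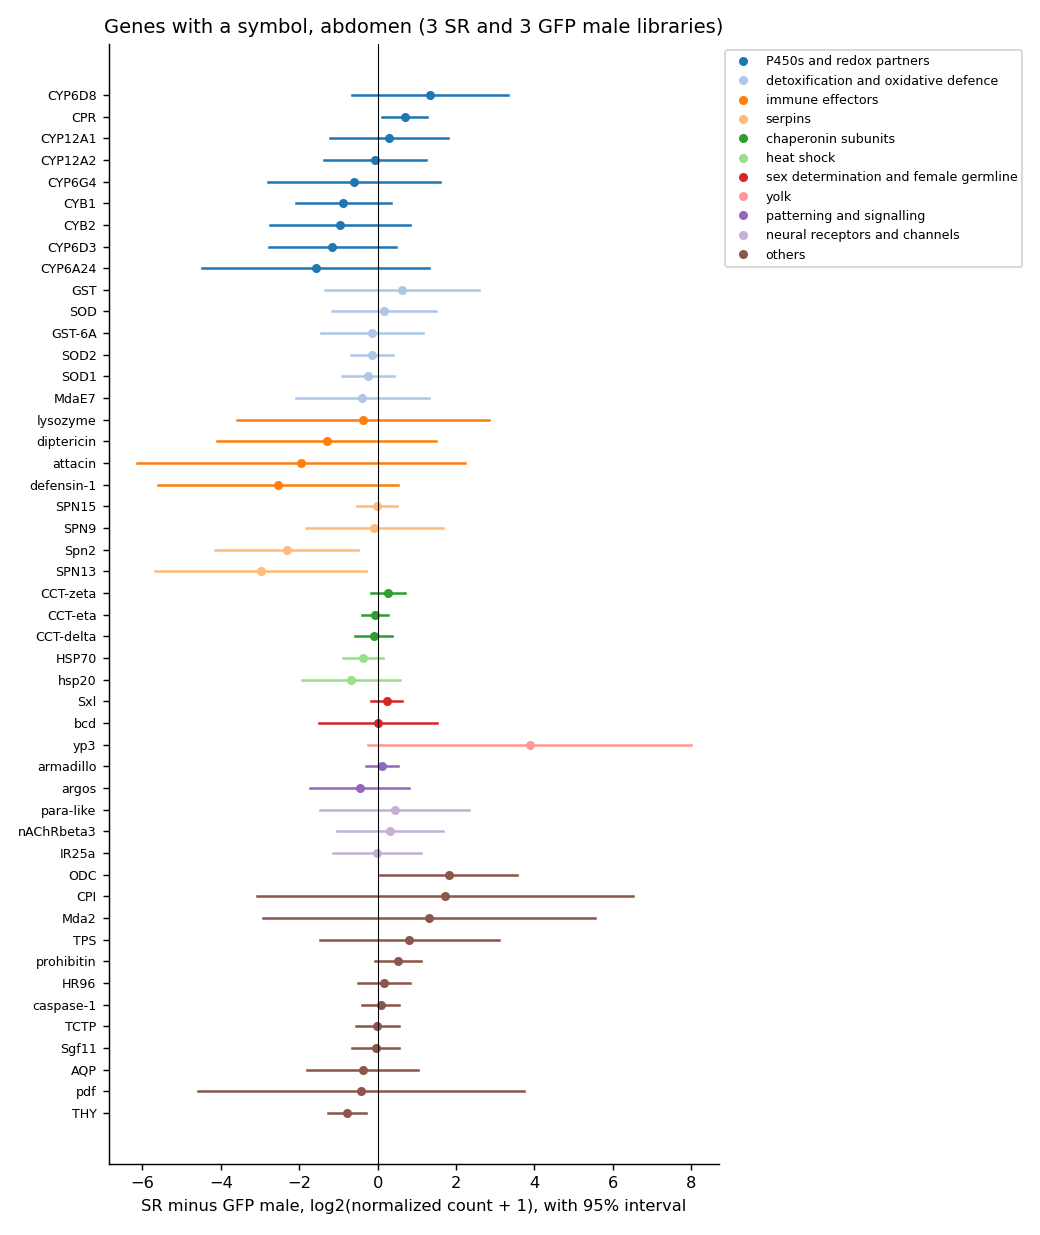
Each point is the SR minus GFP male difference in abdomens, in units of log2(normalized count + 1), for 1 of the 48 tested genes with a symbol, and each bar is its 95% interval from the limma fit over 12 libraries (3 SR and 3 GFP male abdomens in the contrast); colours mark groups of genes by known role. Estimates run from -2.98 (SPN13) to 3.88 (yp3), immune effectors and serpins lie at or below 0, and no gene has an adjusted p under 0.05.

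Called genes were counted by Muller element, which the table gives for 16 of the 20. Element A held 8 of them among 1871 genes tested (0.428%), 3 higher and 5 lower in SR. Element E held 5 of 2613 (0.191%), 4 higher and 1 lower, element C 2 of 2186, element B 1 of 1778, and elements D and F 0 of 1933 and 0 of 34. Genes with no element held 4 of 2122.

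The lack of overlap between SR and GFP male abdomens does not depend on the threshold. By it element A again had the highest share, and the order of the others was different. On element A, 434 genes (23.2%) did not overlap, 199 higher and 235 lower in SR. Elsewhere the share was 14.9% on B, 12.6% on C, 11.95% on D, 14.5% on E, 17.6% of the 34 genes on F and 16.02% of genes with no element. In heads 49.0% of element A genes did not overlap, against 34.2% to 38.0% on B to E, 37.6% of genes with no element and 50% of the 34 genes on F. Called in heads were 145 of 1829 element A genes (7.93%), against 2.77% to 3.94% on B to E, 5.88% on F and 6.28% of genes with no element. The median difference on element A was -0.04 log2 units in abdomens, near the -0.02 of all genes. Genes with no overlap between SR and GFP males in the abdomen and none in the head numbered 742 of the 11178 tested in both tissues, of which 511 (68.9%) had the same direction in both; by element the share was 151 of 208 (72.6%) on A, 59.1% to 68.75% on B to E, 1 of 2 on F and 103 of 131 (78.6%) for genes with no element. None of these shares was tested, and genes of 1 element are not independent of each other.

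**Figure D4:**
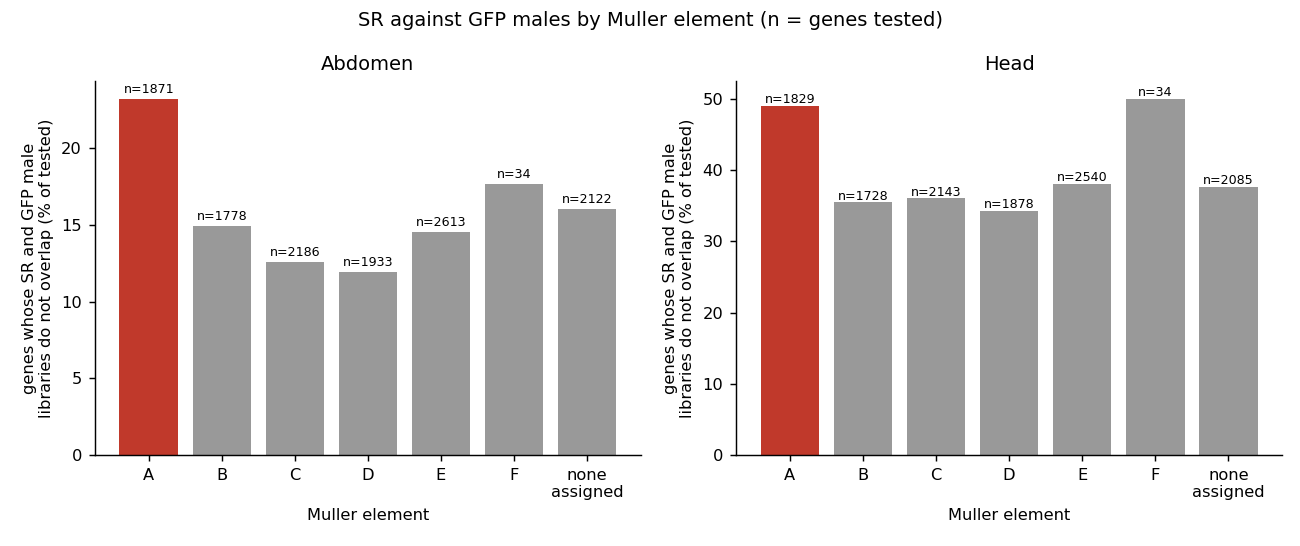
Bars give the percentage of tested genes whose 3 SR and 3 GFP male values do not overlap, by Muller element, in abdomens (left) and heads (right); n is the number of genes tested. Element A, drawn in red, has 23.2% in abdomens and 49.0% in heads, elements B to E have 11.95% to 14.9% and 34.2% to 38.0%, element F, with 34 genes, has 17.6% and 50%, and genes with no element have 16.02% and 37.6%.

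Genes were also listed by their difference between GFP female and N abdomens. These groups differ in phenotype (female or male) and in RNAi target, and by the headers in genotypic sex as well. The lists cannot tell these apart. The means of that contrast used no SR or GFP male library. The estimate of spread behind its adjusted p-values did use them, so the lists are not independent of the calls. By limma, 3662 genes (29.2%) were at least 2-fold higher in GFP females than in N, and 5038 (40.2%) were at least 2-fold higher in N than in GFP females. Of the first list, 6 (0.164%) were called higher and 0 lower in SR against GFP males, beside 0.0638% and 0.0957% of all genes, with a median difference of 0.06 log2 units and 10th and 90th percentiles of -0.34 and 0.47. Of the second, 1 (0.0198%) was called higher and 8 (0.159%) lower, with a median of -0.19 and percentiles of -1.28 and 0.78. Over all genes the median was -0.02. At least 4-fold lower in SR were 187 genes of the second list (3.71%), 7 of the first (0.191%) and 297 of all genes (2.37%). At least 4-fold higher were 83 of the second list (1.65%), 6 of the first (0.164%) and 156 of all genes (1.24%).

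SR flies differed most from each other at the genes with the widest difference between N and GFP females. Where N exceeded GFP females by 8 to 10 log2 units (267 genes), SR replicate 1, 2 and 3 had medians of 0.01, -1.43 and 0.72 log2 units from the GFP male mean, against -0.43, 0.08 and 0.38 in GFP male replicates 1, 2 and 3. Where they exceeded GFP females by 10 or more (197 genes), SR had 0.21, -1.54 and 0.58, against -0.52, 0.07 and 0.46 in GFP males. SR replicate 2 was lowest and SR replicate 3 highest of the 6 flies in both classes, so that the group medians, -0.28 and -0.26, hide flies on either side of the GFP males. At the other end, where N lay more than 6 log2 units below GFP females (150 genes), SR had -0.14, -0.58 and 0.62, against -0.47, 0.38 and 0.08 in GFP males. Where N and GFP females differed by less than 1 log2 unit (2865 genes), the 6 flies lay within -0.02 to 0.07 of the GFP male mean.

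**Figure D5:**
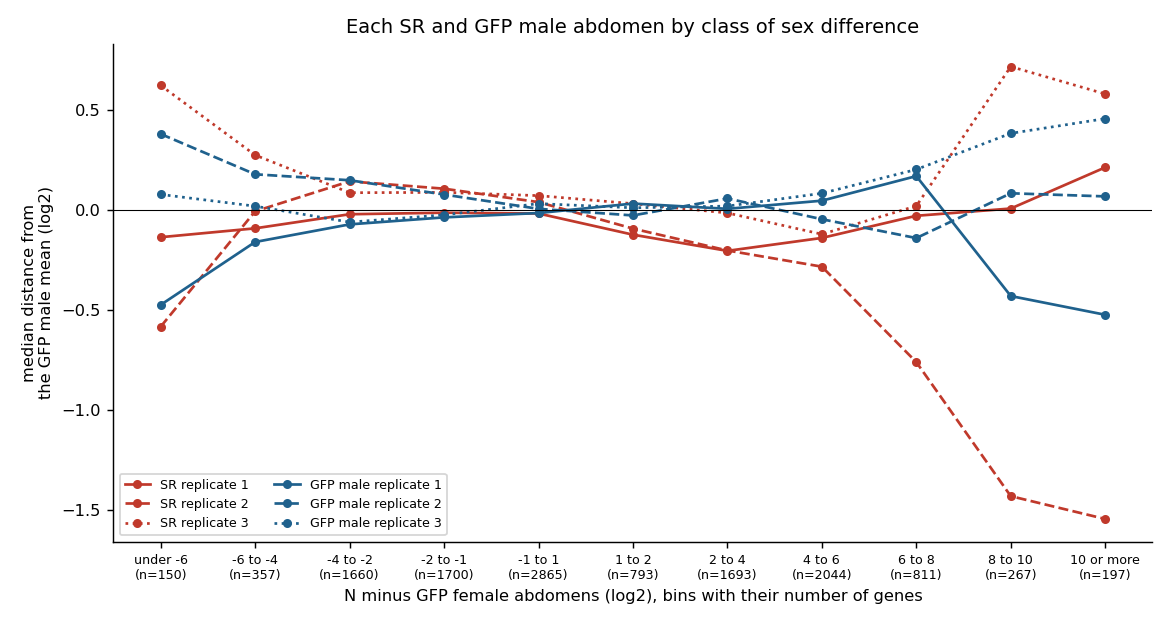
Each line is 1 abdomen, SR in red and GFP male in blue, and each point is its median distance from the GFP male mean in log2 units over the genes of 1 class of N minus GFP female difference (x axis, log2, with the number of genes). The lines meet near 0 for genes with little difference between N and GFP females and part toward both ends. At the left end SR replicates 2 and 3 lie at -0.58 and 0.62, and toward the right they reach -1.54 and 0.72. N and GFP females differ in RNAi target as well as in phenotypic sex, and by the headers also in genotypic sex.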

How the data were processed

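Libraries were made with a stranded mRNA kit, per the labels' protocols. The authors deposited 1 table per tissue; the expression columns are normalized counts (a signal scaled by 1 factor per library), per the file headers, beside log2 fold changes and adjusted p-values of the authors' own comparisons. Tools listed in the submitters' processing notes are HTSeq 0.9.1, CASAVA 1.8, DESeq2 1.16.1 and HISAT2; the genome build is not given in the sources used here. Each value above 0 divided by what 1 read was worth in its library came out whole (100%, tolerance 0.001), which gives depth and allows the count tests.

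Values were taken as log2(normalized count + 1), so log2 differences of genes with few counts are understated. The main test was limma 3.58.1, run in R 4.3.3 with its prior trended on expression, over the 12 libraries of a tissue, adjusted over all genes kept; edgeR 4.0.16 and DESeq2 1.42.0 ran on the recovered reads. Folds are ratios of mean normalized counts, and floors of 3 reads cover counting error only. Replicates are single flies. Deviations from the group means correlated between SR and GFP male abdomens of one number (0.18, 0.32 and 0.46), so a replicate block was fitted as well. Among unlike numbers, SR replicate 2 and GFP male replicate 1 correlated at 0.18, and the other pairs at -0.45 to -0.07. Deviations within a group sum to 0, so these correlations are not independent, and a pairing by number was not tested. Named genes are those called, those with no read in one group, the 8 uncalled non-overlapping genes with the largest difference in each direction (higher group averaging 50 or more), those next to the threshold and those with a symbol. Genes, lists and tests were chosen with earlier results of these data known. Paralogs and overlapping genes can share reads. Files with gene descriptions or sequences were not used here.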

Additional observations from a re-analysis of the deposited data

Results flagged for a closer look

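At 2 of the named genes the SR and GFP male flies did not overlap in either tissue and lay in opposite directions. Such a pattern was not rare: of all 742 genes without overlap in both tissues, 511 (68.9%) had the same direction and the others had opposite ones. LOC101899400 was higher in SR abdomens by 1.70 log2 units and had a head difference of -0.57, with 1194, 592 and 1321 normalized counts in SR heads against 1329, 1527 and 1518 in GFP male heads. THY had an abdomen difference of -0.78 and a head difference of 0.39 log2 units, with 8950.0, 10548 and 8366 in SR heads against 7832, 6629 and 6815 in GFP male heads. Only the abdomen difference of LOC101899400 was called by limma. The tables were scaled separately, and the difference between tissues was not tested.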

How the results depend on the processing

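Beside the 20 genes called, limma called 13 in the 6 SR and GFP male libraries alone, 68 with array weights, 62 without the 3 N libraries and 0 with the replicate block in 6 libraries; edgeR called 2 and DESeq2 268. All 20 were among the 68, the 62 and the 268, and 6 were among the 13. Some called genes had no read in SR or in GFP males. For these, limma in the 6 libraries alone gave adjusted p-values of 0.0299 (LOC105262251), 0.0319 (LOC101900266), 0.0612 (LOC109612989) and 0.106 (LOC109612165). Leaving out 1 replicate at a time gave 9 to 21 calls. The counts were 14 to 30 with another pseudocount, another filter, TMM scaling, the 9 male libraries or the block in 12 libraries. Medians were 0.06 to 0.08 for the genes higher in GFP females than in N, and -0.19 to -0.17 for those higher in N. The block in 12 libraries joined unlike code numbers across groups. It ended the calls of LOC101896416, LOC101892000, LOC109613991, LOC109612165, LOC105262537, LOC101900448 and LOC105262053, at limma adjusted p-values of 0.069 to 0.104. No called gene changed sign under any setting run. The uncalled symbols that did were armadillo, at -0.084 to 0.24 log2 units over the fits without 1 replicate, attacin at -3.60 to 0.024, lysozyme at -1.16 to 1.18 and pdf at -1.98 to 1.70; the cause was not tested.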
